A study of Homo sapiens with 5 samples.

Results

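The regions described here were bound by ZBTB7A in VCaP cells kept in hormone-depleted serum, both with and without the androgen DHT, and were not called in cells grown in full serum. They were chosen by merging overlapping peaks of 3 peak lists on chromosomes 1 to 22 and X and keeping every merged region that held a DHT peak and a CSS peak but no FBS peak. This gave 8656 regions of 148985 merged regions in all. VCaP cells come from a prostate cancer metastasis, depend on androgen receptor signalling and carry a TMPRSS2-ERG gene fusion. The factor was mapped by ChIP-seq, the sequencing of DNA pulled down with an antibody against it, in 5 libraries. In the DHT group (2 libraries), cells in medium with 5% hormone-depleted serum (CSS) received 10 nM DHT for 4 hours. In the CSS group (2 libraries), cells in the same medium received vehicle for 4 hours. In the FBS group (1 library), cells grew in 10% full serum. All 5 libraries carry an identical treatment text in the labels, and that FBS cells had no added DHT was inferred from their culture condition. Medium differed along with serum, since the labels give RPMI without phenol red for the treated cells and DMEM for routine culture, so serum and medium cannot be told apart. Each condition is represented by 1 peak list, and values per library were not used. Conditions could therefore not be tested against each other with a replicate error.

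ZBTB7A, also called LRF or Pokemon, is a transcription factor with a BTB domain, through which it pairs and recruits corepressors, and zinc fingers, through which it binds DNA. It is best known as a repressor, for example of the fetal globin genes in adult erythroid cells. DHT is the potent androgen that binds the androgen receptor, and full serum carries steroid hormones that hormone-depleted serum lacks.

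The lists held 34120 DHT, 37782 CSS and 124868 FBS peaks, of which 884, 1108 and 1217 lay outside chromosomes 1 to 22 and X and were left out. Sequencing depth is unknown, as a peak list carries no read totals. A peak missing from a list was not called there, which does not show that ZBTB7A was absent. Fold enrichment (over the background at the peak) and −log10 q are the authors' values and describe a peak within its own list. Ranks were taken by −log10 q within a list, with percentile 100 for the strongest peak. Intervals are exact 95% intervals for shares and Newcombe intervals for differences of shares. They cover counting error only, and neighbouring regions are not independent of each other. Positions are on hg19, as the lists give them. Genes are not named, because no annotation or sequence of that build was used.

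Merging the DHT and CSS peaks alone gave 20037 regions called in both, referred to as shared regions. Of these, 43.2% (42.5 to 43.9%) had no FBS peak, and these are the 8656 regions above. The other 11381 overlapped an FBS peak by at least 1 bp. (Merging over all 3 lists gave 11424 such regions, since an FBS peak can join neighbours that do not touch or bridge peaks of different lists.) Regions called in 1 of the depleted-serum conditions lacked an FBS peak more often, 62.3% (61.4 to 63.2%) of 12011 DHT-only regions and 69.6% (68.9 to 70.3%) of 15790 CSS-only regions. The sets were not matched for width. Median peak width was 249 bp in the DHT list and 239 bp in the CSS list. Among shared regions under 250 bp the share without an FBS peak was 67.9%, and at 250 to 299 bp it was 60.3%. The choice of members rests on the peak calls, so all these shares are a description.

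The DHT and CSS peaks at the 8656 regions were not weak. Their median rank was at percentile 68.0 of the DHT list and 70.9 of the CSS list, against 62.1 in DHT and 66.5 in CSS for the shared regions with an FBS peak. Median fold enrichment at the regions without an FBS peak was 6.54 in DHT and 6.65 in CSS. At those with one it was 6.14 in DHT and 6.31 in CSS. Of the regions without an FBS peak, 53.4% lay above percentile 50 in both lists and 14.9% below it in both. The corresponding shares of regions with an FBS peak were 48.8% and 16.9%. These values come from the lists that chose the regions and are given without a test.

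The share lacking an FBS peak did not fall as the depleted-serum peaks became stronger. When shared regions were ranked by the mean of their DHT and CSS percentiles and divided into 10 equal parts, the share was 41.6% (39.4 to 43.8%) in the lowest part and 38.1% (36.0 to 40.3%) in part 2. It was 51.7% (49.5 to 53.9%) in part 9 and 49.95% (47.7 to 52.2%) in the highest part. Of the 1716 regions in the highest 10% of both lists, 842 had no FBS peak, or 49.1% (46.7 to 51.5%). At the very top this turned: among 129 regions with a −log10 q of at least 20 in both lists, 19 had no FBS peak, or 14.7% (9.11 to 22.04%). With a −log10 q of at least 10 in both, the share was 50.3% (48.2 to 52.4%) of 2290 regions.

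The strongest of the regions are shown with their values in each list. A region on chromosome 13 (chr13:112170147-112170657) had the best mean rank. Its fold enrichment was 14.4 in DHT (rank 16, −log10 q of 41.2) and 19.9 in CSS (rank 8, −log10 q of 81.3). The nearest FBS peak lay 12048 bp away. On chromosome 17, a region (chr17:60098471-60098969) had a fold enrichment of 16.03 in DHT (rank 46) and 17.1 in CSS (rank 77), and its nearest FBS peak was 13113 bp away. A region on chromosome 15 (chr15:78813014-78813392) had 14.1 in DHT (rank 91) and 17.2 in CSS (rank 92), with an FBS peak 4719 bp away. In these regions the DHT and CSS summits lay 23, 7 and 3 bp apart, so nearly the same position was strongest with and without DHT. Next by mean rank was a region on chromosome 9 (chr9:124733224-124733922), with 12.9 in DHT (rank 104) and 13.3 in CSS (rank 132). An FBS peak was closest there, at 895 bp, and it ranked 76919 in the FBS list. The remaining 2 of the 6 best were on chromosome 11 (chr11:46919353-46919875; 11.8 in DHT and 17.3 in CSS) and on chromosome 16 (chr16:19014551-19014926; 13.5 in DHT and 17.7 in CSS). Both were stronger by rank in CSS, at 178 in DHT and 70 in CSS on chromosome 11 and at 174 in DHT and 79 in CSS on chromosome 16. Their nearest FBS peaks lay 19745 and 19080 bp away. The FBS peaks nearest to these 6 regions had fold enrichments between 3.53 and 4.98.

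Ranks with and without DHT followed each other loosely. Across the 8656 regions, Spearman's rho between the DHT and CSS percentiles was 0.503, and it was 0.477 across the 11381 shared regions with an FBS peak. The regions of a set share their 2 libraries per list, and rho is given as a description. DHT and CSS percentiles lay within 10 points of each other at 35.4% of the regions without an FBS peak (34.4 to 36.4%) and at 34.4% of those with one (33.5 to 35.2%). The percentile was higher in DHT at 45.0% of the regions without an FBS peak and at 43.9% of those with one. Large shifts were rare in both sets. Of the regions without an FBS peak, 66 (0.762%) were above percentile 80 in DHT and below 20 in CSS. Another 98 (1.13%) were the other way round. Among the regions with an FBS peak the counts were 85 (0.747%) and 122 (1.07%).

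Among the regions that stood in the highest 20% of either list, the widest shifts ran from one end of a list to the other. On chromosome 16, a region (chr16:48500083-48500378) ranked at percentile 97.4 in DHT, with a fold enrichment of 11.1, and at percentile 2.32 in CSS, with 3.83. Another, on chromosome 5 (chr5:104617534-104617820) ranked at 98.4 in DHT (fold enrichment 11.97) and at 8.19 in CSS (3.98), and one on chromosome 1 (chr1:149350915-149351237) at 94.7 in DHT (10.02) and 3.72 in CSS (3.89). The opposite was seen on chromosome 10 (chr10:103795223-103795567), at percentile 3.85 in DHT (fold enrichment 4.09) and 97.7 in CSS (11.8). On chromosome 22, a region (chr22:17439805-17440144) ranked at 8.25 in DHT (4.36) and 96.8 in CSS (12.4), and one on chromosome 7 (chr7:158058770-158059209) at 1.14 in DHT (3.86) and 90.97 in CSS (9.14). These 6 are the extremes of many regions, with no replicate check.

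The share lacking an FBS peak varied more with width than with rank. The regions without an FBS peak had a median width of 305 bp (10th to 90th percentile 228 to 712.5 bp), against 454 bp (259 to 866 bp) for the shared regions with an FBS peak. The share was 67.9% (66.1 to 69.6%) of regions under 250 bp, 45.6% (44.1 to 47.2%) of regions of 300 to 399 bp and 23.9% (22.1 to 25.8%) of regions of 700 to 999 bp. It was higher again, at 37.9% (34.95 to 40.9%), for the 1042 regions of 1000 bp and over. The difference between the widest class and the class of 700 to 999 bp was 14.0 points (10.5 to 17.5). A wider region offers more bases for an FBS peak to overlap, so FBS peaks were also counted in a fixed window of 201 bp around each summit, an alternative added after the data were seen. By this count the share without an FBS peak in the widest class was 60.8% at the DHT summit and 62.5% at the CSS summit, against 35.4% and 35.8% for regions of 700 to 999 bp. Rank differed between those classes too: the median percentile in the widest class was 90.5 in DHT and 95.7 in CSS, and in the class of 700 to 999 bp it was 74.3 in DHT and 81.0 in CSS.

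**Figure D1:**
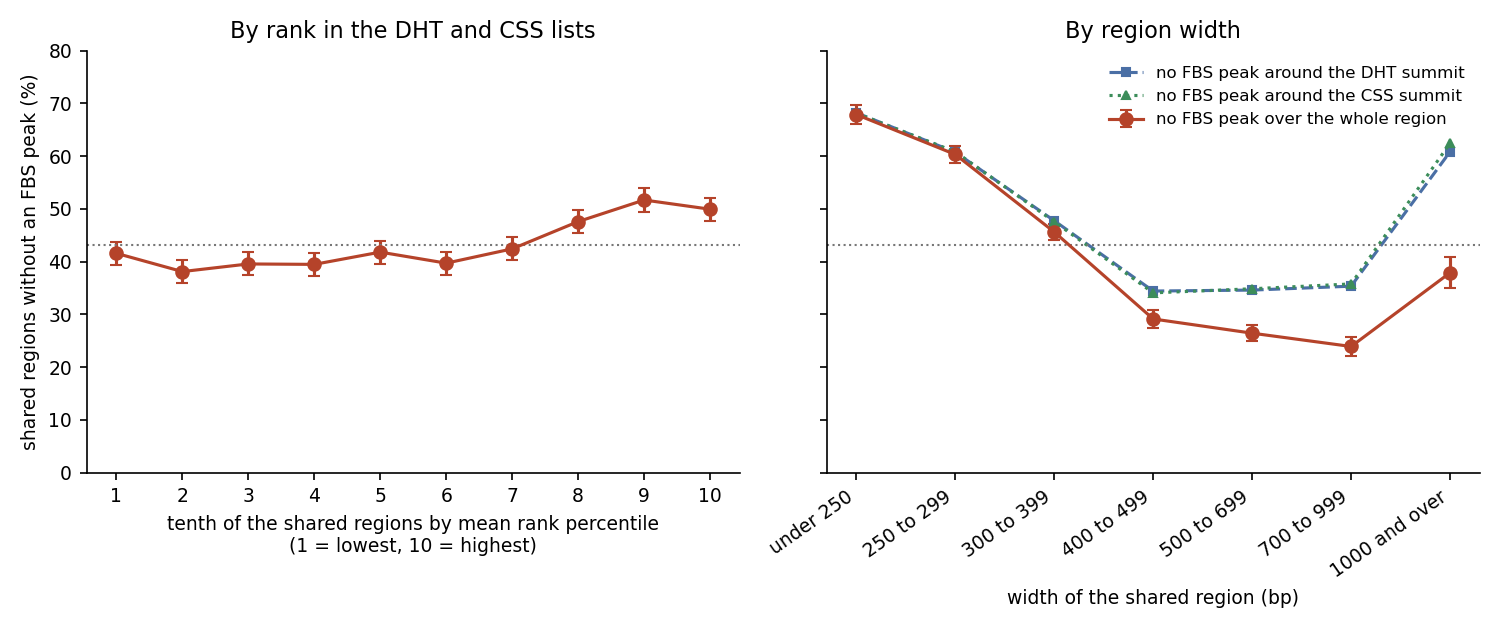
Share of the 20037 regions called in DHT and CSS that lacked an FBS peak (vertical axis, %), by mean rank in 10 equal parts (left) and by region width in bp (right); bars are exact 95% intervals and the dotted line is the share over all regions, 43.2%. The share is highest in part 9 of the ranks (51.7%). Over the whole region it falls with width to 23.9% and is higher again in the widest class. Counted only in the 201 bp at the DHT summit (squares) or the CSS summit (triangles), it changes little from 400 to 999 bp. By that count its rise in the widest class is larger.

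The share differed most with rank among wide regions. In the class of 700 bp and over, rank and width rose together and were not separated. Of the regions of 700 bp and over in the lowest of 5 equal parts by mean rank, 9.93% (5.67 to 15.9%) lacked an FBS peak, and in the highest part 41.9% (39.5 to 44.5%) did. From 300 to 699 bp the shares were 32.6% (30.7 to 34.5%) in the lowest part and 48.3% (45.7 to 50.9%) in the highest. Among regions under 300 bp they were 54.9% (52.3 to 57.5%) in the lowest part and 68.5% (65.5 to 71.4%) in the highest. In all, 395 regions of 1000 bp and over lacked an FBS peak, and their nearest FBS peak lay at a median distance of 7491 bp. The widest spanned 2438 bp on chromosome 22 (chr22:31987452-31989889), where 4 DHT peaks and 2 CSS peaks were joined. Its peak with the highest −log10 q had a fold enrichment of 4.81 in DHT and 5.23 in CSS, and the nearest FBS peak was 36773 bp away. A region of 2339 bp on chromosome 10 (chr10:101597715-101600053) was a single CSS peak (5.39) over 2 DHT peaks (4.95 at the one with the highest −log10 q). A region of 2303 bp on chromosome 20 (chr20:32816895-32819197) joined 2 peaks of each list, of which the one with the highest −log10 q had a fold enrichment of 5.56 in DHT and 6.20 in CSS. Fold enrichment was thus below the median of the regions, while the rank by −log10 q was at percentile 68.4 in DHT and 89.4 in CSS on chromosome 22, 82.4 and 95.2 on chromosome 10, and 90.3 and 97.7 on chromosome 20. Joined peaks were unusual: 94.5% of the regions without an FBS peak held exactly 1 DHT and 1 CSS peak, as did 88.5% of those with one.

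The DHT and CSS summits lay closer together at the regions without an FBS peak. The median distance was 47 bp, against 75 bp at shared regions with an FBS peak, and 76.9% (76.0 to 77.7%) of the summits lay within 100 bp, against 59.8% (58.9 to 60.7%). The difference was 17.0 points (15.8 to 18.3). Summits in a narrow region cannot be far apart, and within classes of width most of this difference was gone. Under 250 bp, 93.9% of regions without and 94.1% of regions with an FBS peak had summits within 100 bp, a difference of -0.211 points (-2.01 to 1.80). From 300 to 399 bp the shares were 79.99% and 76.8% (difference 3.23 points, 0.714 to 5.71). The largest of the 7 differences was at 700 to 999 bp, where 43.1% of regions without and 33.4% of regions with an FBS peak had summits that close (9.62 points, 4.76 to 14.5). In the widest class the difference was 2.69 points (-3.27 to 8.73).

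**Figure D2:**
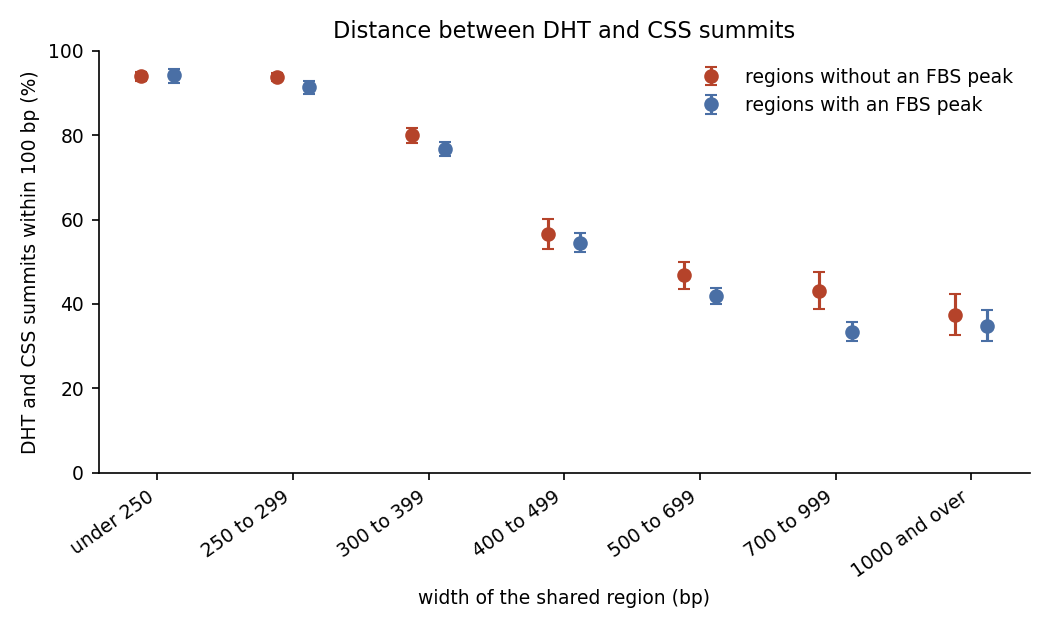
Share of shared regions whose DHT and CSS summits lay within 100 bp (vertical axis, %) by region width in bp, for regions without an FBS peak (red) and with one (blue); bars are exact 95% intervals. Both sets fall from about the same level in the narrowest class (93.9% and 94.1%), and they stand farthest apart at 700 to 999 bp (43.1% and 33.4%).

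Few of the regions had an FBS peak within 100 bp, and no distance from randomly placed regions was taken for comparison. The nearest FBS peak lay at a median distance of 8414 bp (8092 to 8736 bp, interval of the median). This distance depends on the length of the FBS list, the longest of the 3. It was 31735 bp with equal numbers of top peaks, 21982 bp when peaks of every list needed a −log10 q of 5 or more, and 170940 bp when they needed 10. It was within 100 bp at 2.90% of the regions, within 1000 bp at 15.1% (14.3 to 15.8%) and within 10 kb at 55.2% (54.1 to 56.2%). At the other end, 10% of the regions had no FBS peak within 55366 bp, and the most remote had none within 829843 bp. For comparison, the nearest FBS peak was within 1000 bp of 17.7% (16.9 to 18.6%) of DHT-only regions and 17.1% (16.4 to 17.8%) of CSS-only regions that lacked an FBS peak. The 842 regions in the highest 10% of both lists had an FBS peak within 1000 bp in 9.74% (7.82 to 11.9%) of cases.

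The limit of 1 bp decided few regions. An FBS peak lay at most 10 bp away from 28 of the 8656 regions, and overlapped by at most 10 bp at 31 of the 11381 others. Just inside the limit, a region on chromosome 9 (chr9:133972277-133972561; fold enrichment 4.65 in DHT and 5.95 in CSS) and one on chromosome 17 (chr17:1628130-1628554; 5.17 in DHT and 4.75 in CSS) adjoined an FBS peak with no base between them. A region on chromosome 2 (chr2:219081776-219082091; 3.96 in DHT and 7.54 in CSS) was 1 bp away from one. Just outside it, an FBS peak overlapped by 1 bp on chromosome 15 (chr15:34729668-34730011; 5.19 in DHT and 9.87 in CSS), chromosome 17 (chr17:74706447-74706812; 6.12 in DHT and 4.79 in CSS) and chromosome 16 (chr16:2961968-2962351; 5.16 in DHT and 4.11 in CSS).

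**Figure D3:**
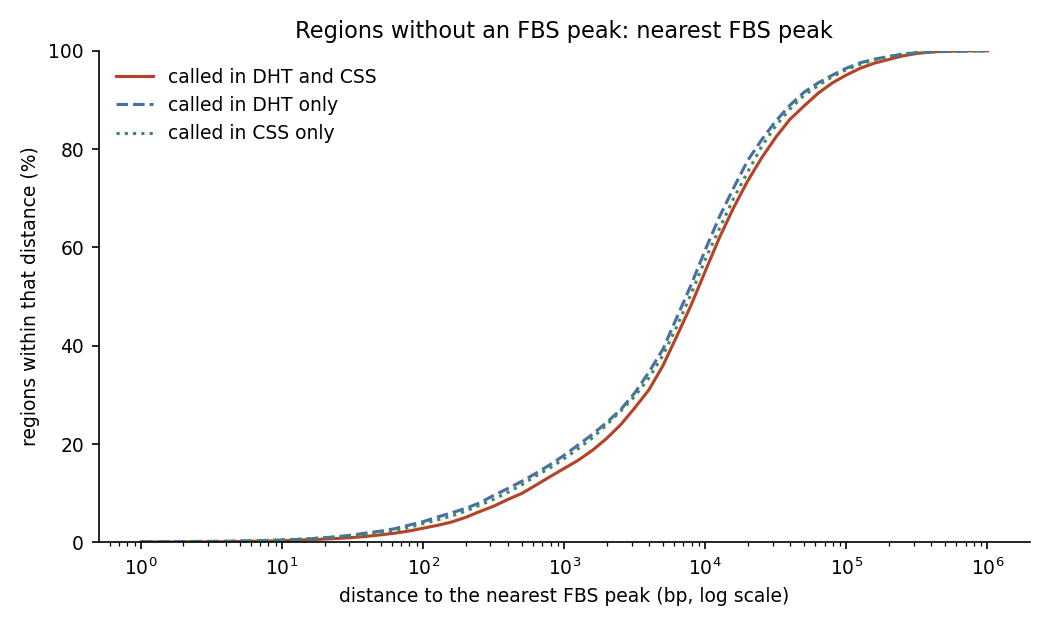
Distance to the nearest FBS peak (horizontal axis, bp, log scale) against the share of regions within that distance (vertical axis, %), for regions without an FBS peak that were called in DHT and CSS, in DHT only or in CSS only. The 3 curves lie close together, and the regions called in both conditions were the farthest from FBS peaks, with a median of 8414 bp against 7353 bp (DHT only) and 7804 bp (CSS only).

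The regions were spread over the genome, with 2640 of the 2837 windows of 1 Mb that held a shared region holding at least 1 without an FBS peak. The share of shared regions that lacked an FBS peak nevertheless differed between chromosomes. It was highest on chromosome X, at 67.1% (63.0 to 71.0%) of 556 regions, against 42.5% on all other chromosomes, a difference of 24.6 points (20.5 to 28.4). Next were chromosome 16, at 54.4% (49.5 to 59.2%) of 423 regions, and chromosome 13, at 50.8% (46.8 to 54.9%) of 602. The lowest shares were on chromosome 15, at 33.3% (29.8 to 36.9%) of 688 regions, chromosome 8, at 34.9% (31.8 to 38.1%) of 931, and chromosome 21, at 35.7% (30.5 to 41.2%) of 325. The interval of the difference from the other chromosomes lay above 0 for 6 of 23 chromosomes and below 0 for 7, with no adjustment for their number.

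By arm, the highest shares were on Xq (69.4%, 64.0 to 74.4%), Xp (64.0%, 57.5 to 70.1%) and 16q (57.6%, 50.5 to 64.5%), and the lowest on 8q (30.8%, 27.4 to 34.5%), 11q (33.1%, 29.7 to 36.6%) and 15q (33.3%). The short arm of chromosome 8 had a share of 46.2% (39.8 to 52.6%), so the low value of chromosome 8 was that of its long arm. Both arms of X stood high.

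**Figure D4:**
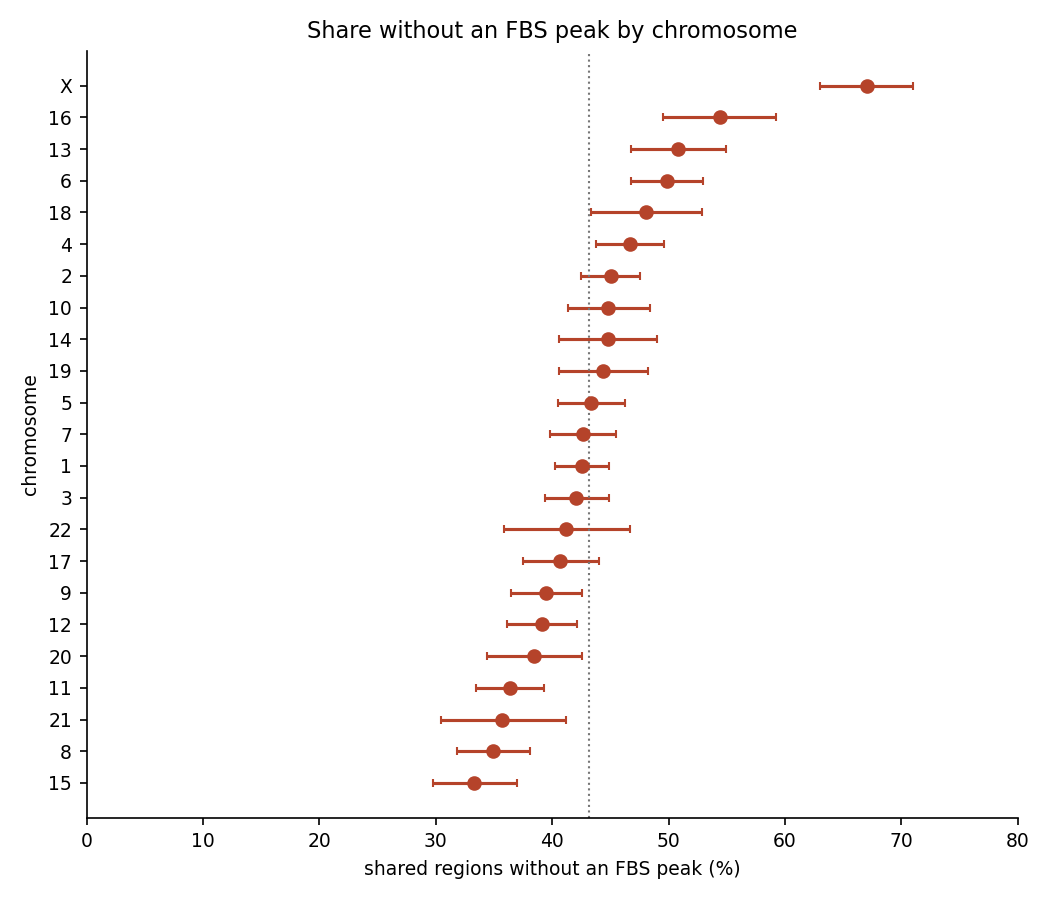
Share of shared regions without an FBS peak (horizontal axis, %) for each of 23 chromosomes, ordered from the highest share; bars are exact 95% intervals and the dotted line is the share over all regions, 43.2%. Chromosome X (67.1%) stands apart from all others, and chromosomes 15, 8, 21 and 11 lie at the low end.

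The difference of chromosome X was present at each width. Among regions under 300 bp, 78.2% on X and 63.0% elsewhere lacked an FBS peak (15.2 points, 9.48 to 20.1). From 300 to 699 bp the shares were 62.2% and 34.2% (28.0 points, 21.7 to 34.0), and from 700 bp up 45.8% and 28.1% (17.7 points, 6.57 to 29.2). The difference was smaller among the strongest peaks. It was 23.9 points (18.5 to 28.9) when DHT and CSS peaks needed a −log10 q of 5 or more. When they needed 10 it was 8.80 points (-1.74 to 18.6), and its interval held 0. With 10 or more in all 3 lists it was 11.4 points (4.09 to 15.3). In 5 equal parts by CSS rank, from lowest to highest, it was 27.6, 20.045, 28.6, 29.7 and 14.5 points. Regions called in 1 condition showed a difference in the same direction: 10.6 points (6.006 to 14.7) for DHT-only regions and 12.2 points (8.75 to 15.2) for CSS-only regions. Chromosome 19, rich in genes, differed by width: its narrow regions lacked an FBS peak as often as elsewhere (63.3% against 63.6%, a difference of -0.260 points with an interval of -8.10 to 6.96), while of its 99 regions of 700 bp and over 49.5% did, against 27.9% elsewhere (21.6 points, 11.8 to 31.4). Chromosome 19 was picked out after these values were seen.

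The share moved with the number of FBS peaks in the surroundings. Both come from the FBS list, so a lower share where FBS peaks are dense is partly fixed by construction. For each shared region, FBS summits within 500 kb of its centre were counted, leaving out those within 1 kb, and the regions were divided into 5 equal parts by that number. In the part with the fewest, 0 to 29 FBS peaks, 62.3% (60.8 to 63.8%) lacked an FBS peak of their own. In the part with the most, 77 to 289, 32.7% (31.3 to 34.2%) did. The first part was also above the last among regions under 300 bp, at 70.6% (68.5 to 72.5%) and 55.6% (52.3 to 58.8%), and among regions of 300 to 699 bp, where the shares were 56.5% (54.0 to 58.9%) and 27.9% (26.0 to 29.9%). Among regions of 700 bp and over they were 38.1% (32.5 to 43.9%) and 21.6% (19.1 to 24.4%), but part 3 (34.3%) was above part 2 (29.8%), and at 300 to 699 bp part 5 was slightly above part 4 (27.1%). Of the 556 shared regions on X, 448 fell in the part with the fewest FBS peaks. Within it the share was 70.1% on X and 61.4% elsewhere, a difference of 8.72 points (4.05 to 13.1) beside the 24.6 points over all regions.

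**Figure D5:**
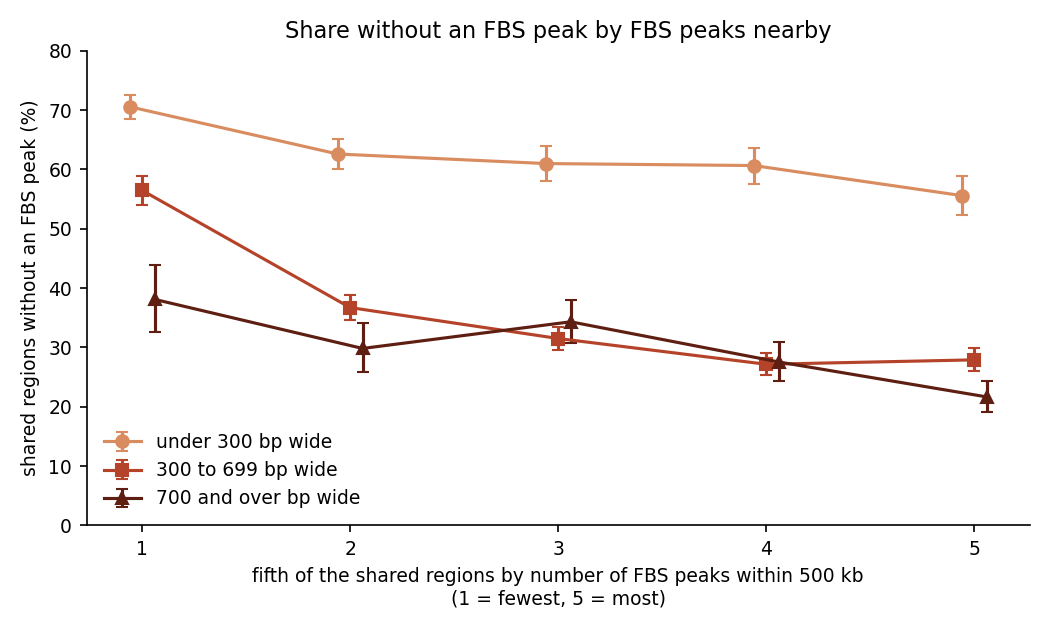
Share of shared regions without an FBS peak (vertical axis, %) by number of FBS peaks within 500 kb (horizontal axis, 5 equal parts from fewest to most), in 3 classes of region width; bars are exact 95% intervals. The share is lower where FBS peaks are denser, at 70.6% with the fewest and 55.6% with the most among the narrowest regions, with a break in order in each of the wider classes. Both axes rest on the FBS list, so this fall is partly fixed by construction.

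Neighbouring regions tended to lack an FBS peak together. After a region without an FBS peak, the next shared region along the chromosome also lacked one in 48.5% of cases (47.5 to 49.6%), and after a region with an FBS peak in 39.1% (38.2 to 40.0%). When the next region was under 10 kb away, the shares were 54.8% (51.5 to 58.0%) and 30.6% (28.1 to 33.2%), a difference of 24.2 points (20.03 to 28.2). When the next region was 1 Mb or more away, the shares were alike. They were 60.8% (50.4 to 70.6%) of 97 cases and 60.0% (47.1 to 72.0%) of 65. The 8656 regions formed 4459 unbroken runs, of which 2469 held 1 region and 15 held 10 or more. The longest run, of 21 shared regions without an FBS peak, was on the long arm of chromosome X from 90470003 to 99979414, where the lists held 38 DHT, 53 CSS and 42 FBS peaks. That these FBS peaks lay off the 21 regions follows from how a run is defined. Whether they overlapped other DHT or CSS peaks of the stretch was not counted.

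Runs of 15 lay on chromosome 16 from 58429679 to 62047173 (30 DHT, 27 CSS and 28 FBS peaks) and on chromosome 6 from 31899588 to 33168256. The run on chromosome 6 is in the part of the short arm that holds the major histocompatibility complex, and it spanned 1.27 Mb with 26 DHT, 26 CSS and 4 FBS peaks. Over the 3 Mb from 30000001 to 33000000 on chromosome 6, 31 of 35 shared regions lacked an FBS peak, beside 43.2% of all shared regions. The FBS list held 15 peaks in these 3 Mb. Among shared regions in the part with the fewest FBS peaks nearby, the share was 62.3%. This span was not set by the naming rule and takes in most of the run, so its count is not separate from it. The build also carries alternate versions of this part, and their peaks were not among the members. The handling of reads with more than 1 place in the genome is not stated, and its part in this run was not tested.

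The windows of 1 Mb with the most such regions were elsewhere. They lay on chromosome 1 from 228000001 to 229000000 (17 of 28 shared regions without an FBS peak) and from 1 to 1000000 (16 of 24), on chromosome 9 from 136000001 to 137000000 (16 of 24), and on chromosome 17 from 1000001 to 2000000 (16 of 28) and from 42000001 to 43000000 (15 of 22). These windows held between 31 and 73 FBS peaks each. Their shares, 57.1 to 68.2%, have wide intervals, from 37.2 to 75.5% for the lowest to 45.1 to 86.1% for the highest, and they were picked as the fullest of 2837 windows. The fullest window rested on a cluster of peaks with low fold enrichment. In it, 10 of the 17 regions lay under 5 kb apart between 228753034 and 228777843, with starts at a median spacing of 2237 bp and fold enrichments of 1.79 to 2.16 in DHT and 1.76 to 2.11 in CSS. The −log10 q values of these 10 regions lay on both sides of the medians of the 8656 regions, 6.64 in DHT and 7.06 in CSS. Without that stretch, 7 of 17 shared regions lacked an FBS peak. Of the 16 regions in the first window of chromosome 1, 4 lay close together from 564569 to 569705, at 2.87 to 3.34 in DHT and 3.06 to 4.16 in CSS.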

How the data were processed

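ZBTB7A ChIP-seq peak lists of VCaP cells were used, 1 narrowPeak list per condition (DHT, CSS, FBS). Reads were aligned to hg19 and processed with MACS2 2.0.10.20131216, BWA 0.7.2-r351 and SAMtools 0.1.18, per the submitters' processing notes. Which control was used, at what q-value peaks were cut and how libraries were pooled are not stated. Fold enrichment is a ratio deposited by the authors. The −log10 q of each peak and a peak score were also deposited, and the score was not used. Lowest −log10 q was 1.31 in DHT, 1.33 in CSS and 1.31 in FBS.

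Peaks that overlapped by at least 1 bp were merged. Where a region held several peaks of a list, the one with the highest −log10 q gave its values. Exact Clopper-Pearson and Newcombe intervals were used. Arms were divided at the longest peak-free gap, if 1 Mb or more, and arms with under 50 shared regions were left out. The code was tested on simulated data, and bedtools 2.31.1 gave the same 8656 regions. Software was scipy 1.17.1, pandas 2.3.3, numpy 2.4.6 and matplotlib 3.10.9 under Python 3.11.15. The members, lists and rules were chosen with earlier results of these data known. The rule named the 6 regions with the best mean rank, 3 with the largest rank shift each way, the 3 widest, 3 on each side of the overlap limit, 3 runs, 5 windows, and the chromosomes and arms with the 3 highest and 3 lowest shares. No annotation or sequence of hg19 was used, so planned results on promoters, gene lists and motif words were left out.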

Additional observations from a re-analysis of the deposited data

Results flagged for a closer look

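The counts here are of regions with DHT and CSS peaks and no FBS peak on sequences other than chromosomes 1 to 22 and X. They are listed because each exceeds 3, the limit that a count of 0 allows, with no expected count to set it against. Chromosome Y held 101 such regions of 156 called in DHT and CSS, or 64.7% (56.7 to 72.2%). Alternate haplotype sequences held 243 of 293, or 82.9% (78.1 to 87.1%), of which 229 of 269 were on alternate versions of the part of chromosome 6 with the major histocompatibility complex. Unplaced or unlocalized sequences held 32 of 102, or 31.4% (22.5 to 41.3%).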

How the results depend on the processing

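No paired analysis was possible because each condition has 1 list, not 1 per numbered library, so leaving out a replicate could not be run either. The number of regions, 8656, was 4735 and 1155 when DHT and CSS peaks needed a −log10 q of at least 5 or 10. It was 6522 and 1887 when all lists needed 5 or 10. With equal numbers of top peaks, which shortens the FBS list most, it rose to 12623. The share of shared regions lacking an FBS peak, 43.2%, became 45.0% and 50.4% with a −log10 q of at least 5 or 10 in DHT and CSS, and 62.0% and 82.4% with these thresholds in every list. It was 38.9% with no FBS peak within 500 bp, 47.5% where DHT and CSS peaks had to overlap by 50% of each, 65.1% with equal numbers of top peaks (34120), and 48.3% and 48.4% in 201 bp at the DHT and CSS summits. Fewer FBS peaks raise this share by construction.

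The median percentiles of the regions in DHT and CSS were 82.0 and 84.9 with a −log10 q of at least 5 in DHT and CSS, 94.7 and 95.1 with 10, 82.1 and 84.9 with 5 in every list, 94.9 and 95.4 with 10 in every list, 76.6 and 79.8 with a fold enrichment of at least 5, 70.1 and 72.2 with no FBS peak within 500 bp, and 71.6 and 72.4 with the 50% overlap. The median distance to an FBS peak was 8882 bp with a −log10 q of at least 5 in DHT and CSS, 21982 bp and 170940 bp with 5 and 10 in every list, 8768.5 bp with a fold enrichment of at least 5, 9907 bp with the limit of 500 bp, 8819 bp with the 50% overlap and 31735 bp with equal numbers. The number of chromosomes whose share differed from the rest, 13, was 5 with a −log10 q of at least 10 in DHT and CSS, and between 11 and 16 otherwise. Chromosome X was above the other chromosomes by 11.4 to 29.7 points under the other thresholds and in the 5 parts by CSS rank, by 8.80 points (-1.74 to 18.6) under that same threshold, and by 8.72 (4.05 to 13.1) and 10.5 points (0.215 to 20.4) in the 2 parts with the fewest FBS peaks nearby. The 201 bp windows, width classes and FBS density were added after seeing the data. Of 64 values under alternatives, 29 stayed within their interval, their 1.5-fold range or their side of 0. The cause of the other changes was not tested.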

Other observations

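On the short arm of chromosome 7 from 1000001 to 3000000, 25 of 29 shared regions lacked an FBS peak. The share was 43.2% over all shared regions, and the FBS list held 75 peaks in the stretch. The stretch was chosen after its values were seen. A run of 11 regions without an FBS peak lay on chromosome 8 from 4599535 to 6187751, on the arm that does not have a low share, with 12 DHT, 13 CSS and 6 FBS peaks, and a run of 13 lay on chromosome 4 (135149143 to 139660818).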
